A study of Mus musculus with 8 samples.

Results

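Expression of 8 genes was followed in macrophages of visceral white adipose tissue from lean and obese mice: St18, Myh15, Dlgap2, Shisa9, Oprm1, Fat3, Fgf13 and Gabbr2. They were taken by gene symbol from the 56749 features counted in every library. They were chosen by their levels in macrophages and by how these differed between the groups, so those levels are given as a description, without a test. Tests are given for the genes in other cell classes and for their relatives.

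RNA was counted in single nuclei isolated from frozen fat of 8 mice, 2 per group. All mice carried p21 (Cdkn1a) alleles with an mCherry cassette on one chromosome. The controls were p21+/mCherry mice on standard diet (mCherry SD, mice rep144 and rep146) and p21+/mCherry mice on high fat diet (mCherry HFD, rep128 and rep129). The other groups, both on high fat diet, were p21+/mCherry-Tert (Tert HFD, rep134 and rep136) and p21+/mCherry-TertCi (TertCi HFD, rep138 and rep140). Tert is the protein subunit of telomerase, and the labels do not spell out what TertCi is. The cassettes are driven by the p21 promoter, which is active in many cell types, so the model is not one of macrophages alone. Age and sex are not given in the sources used here. Nuclei were sorted on a DNA stain, with no selection for a cell type, and the p-values below measure only the spread between these mice.

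St18 encodes a zinc-finger transcription factor of the MYT family, whose other members, Myt1 and Myt1l, are known from neural development. Dlgap2 encodes a scaffold protein of the postsynaptic density, and Shisa9 an auxiliary subunit of AMPA glutamate receptors. Oprm1 encodes the mu opioid receptor. Gabbr2 encodes the subunit of the GABA-B receptor that couples to G proteins and works as a pair with Gabbr1, with Kctd proteins as auxiliary subunits. Fat3 is a very large atypical cadherin that shapes neurons, Fgf13 is a growth factor homologue that is kept inside the cell and binds voltage-gated sodium channels, and Myh15 is a myosin heavy chain of the sarcomeric type. In obese adipose tissue, macrophages that take up lipid around dying adipocytes turn on a lysosomal and lipid-handling programme with Gpnmb and Trem2, while perivascular macrophages carry F13a1 and Mrc1.

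The libraries held 23378488 to 139749876 unique molecules (UMIs), and 30209 nuclei were kept, with medians of 1682 to 7134 UMIs per nucleus. Macrophage-like nuclei numbered 91 and 155 in mCherry SD, 3710 and 1382 in mCherry HFD, 928 and 903 in Tert HFD and 1123 and 299 in TertCi HFD. The mCherry SD levels therefore rest on few nuclei. Of the cell barcodes, 119 occurred in more than 1 library. The mCherry HFD libraries stood apart: they held 98.5% of the nuclei of one macrophage subcluster and 97.9% of another, and results are therefore also given without them. The cassette could be checked only in part, since the mCherry feature had 0 to 17 UMIs per library, and it is not given in the sources used here whether the Tert feature counts RNA of the cassette. Tert was at 3.27 to 3.98 CPM, UMIs scaled to 1e6 per library, in the 4 mCherry libraries and at 2.01 to 2.76 CPM in the 4 libraries labelled Tert or TertCi, over whole libraries. It was thus lower, without overlap, in the libraries whose labels carry Tert, and Tert HFD and TertCi HFD stand throughout for the libraries so labelled. Cdkn1a was at 1.57 to 3.19 CPM in mCherry SD, 14.3 to 17.1 CPM in mCherry HFD and 4.28 to 8.48 CPM in the other libraries.

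Promoter sequence was at hand in RefSeq (mouse build GRCm38.p6, an older build than the mm39 named in the submitters' notes) for 5 of the 8 genes: Fat3, Fgf13, Gabbr2, Myh15 and Oprm1, with 10 start sites in all. The 250 bases before a start site are printed for Fgf13, the member whose window held the most motif matches, and for Fat3 and Myh15, which moved with it across the macrophage samples. Capitals mark motif matches on either strand, and none of the capitals overlap.
Fgf13 (chrX:59166089-59166338, minus strand): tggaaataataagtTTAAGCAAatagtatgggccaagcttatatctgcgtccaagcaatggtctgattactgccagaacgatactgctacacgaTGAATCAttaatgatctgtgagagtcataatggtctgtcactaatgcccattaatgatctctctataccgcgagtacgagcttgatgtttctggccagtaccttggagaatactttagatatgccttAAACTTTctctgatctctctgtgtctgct
Fat3 (chr9:16502055-16502304, minus strand): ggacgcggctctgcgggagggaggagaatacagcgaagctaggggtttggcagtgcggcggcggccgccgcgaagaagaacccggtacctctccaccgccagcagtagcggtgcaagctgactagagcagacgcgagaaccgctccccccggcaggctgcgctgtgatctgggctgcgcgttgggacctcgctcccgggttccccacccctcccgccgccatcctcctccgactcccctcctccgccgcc
Myh15 (chr16:49057150-49057399, plus strand): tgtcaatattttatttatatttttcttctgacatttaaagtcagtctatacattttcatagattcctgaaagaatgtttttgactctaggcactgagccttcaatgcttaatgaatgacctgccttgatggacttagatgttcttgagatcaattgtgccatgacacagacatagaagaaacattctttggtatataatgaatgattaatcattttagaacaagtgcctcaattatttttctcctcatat
Windows of 300 bases, from 250 before to 50 after the start, were searched on both strands for 6 motifs. The PU.1 motif GAGGAAGT, the E box CACGTG and the PPAR-RXR direct repeat were in none of the 10 member windows, against 3.20%, 7.15% and 0.0396% of all 32851 promoters. The AP-1 motif TGANTCA, in 7.81% of all promoters, was in the printed Fgf13 window, 156 bases before the start. The C/EBP motif TTGCNNAA, in 10.8% of all promoters, was in the same Fgf13 window at position -236 and in that of Myh15 at position 4, past the printed stretch. The MYT family core AAAGTTT, the kind of site St18 binds, was in 4.74% of all promoters and in the same Fgf13 window at -29. A match is a description of the letters only.

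Levels in macrophages were taken as CPM of the summed UMIs of all macrophage-like nuclei of a mouse, called a sum here. In such sums, fewer expressing cells and less RNA per cell cannot be told apart. St18, the transcription factor, was at 76.6 and 123 CPM in mCherry SD, 1303 and 1076 in mCherry HFD, 526 and 566 in Tert HFD, and 399 and 372 in TertCi HFD. The 4 groups did not overlap: St18 was highest in mCherry HFD, then Tert HFD, then TertCi HFD, and lowest in mCherry SD. The group means were 99.9 ± 33.1 CPM in mCherry SD and 1189 ± 160.1 CPM in mCherry HFD (SD, n = 2), an 11.9-fold difference. The mCherry HFD mean was 2.18-fold that of Tert HFD and 3.09-fold that of TertCi HFD, and St18 in those groups was still 5.46-fold and 3.85-fold its mCherry SD level. St18 was the only member with more than 14 UMIs in the mCherry SD macrophages, with 113.

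**Figure D1:**
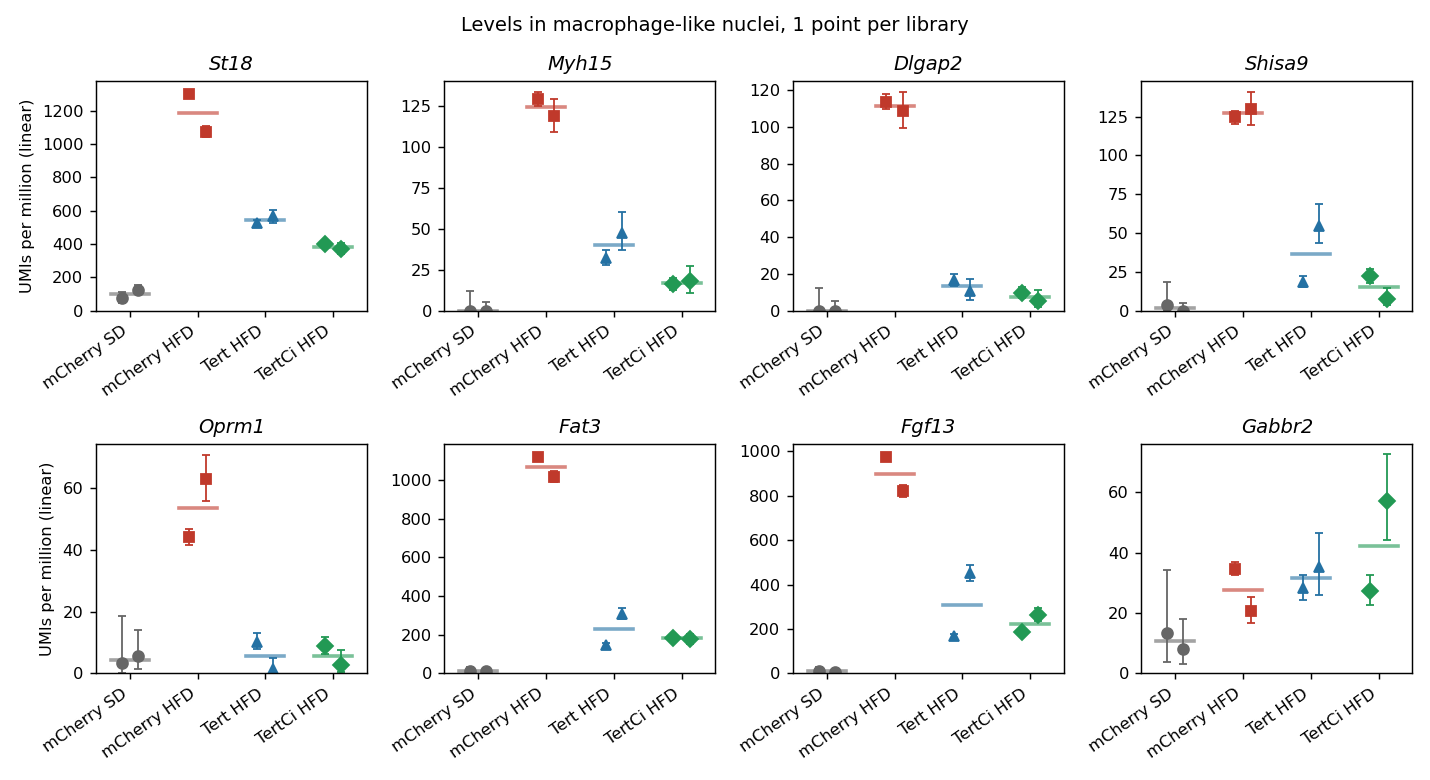
Level of each of the 8 genes in macrophage-like nuclei, 1 panel per gene, as CPM of summed UMIs on a linear axis that differs between panels. Each point is 1 mouse with its exact Poisson 95% interval (counting error only), and horizontal bars are group means. St18, Fat3 and Fgf13 exceed 800 CPM in both mCherry HFD mice, and Gabbr2 stays between 8.22 and 57.1 CPM in all 8.

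Dlgap2 and Shisa9 were almost undetected in lean macrophages. Dlgap2 was at 0 in both mCherry SD libraries, 114 and 109 CPM in mCherry HFD, 16.5 and 10.5 in Tert HFD, and 9.59 and 5.12 in TertCi HFD. Against the floor of 3 counts over the mCherry SD group, 2.91 CPM, Dlgap2 was at least 38.2-fold higher in mCherry HFD, at least 4.63-fold higher in Tert HFD and at least 2.53-fold higher in TertCi HFD. The mCherry HFD mean of Dlgap2 was 8.24-fold that of Tert HFD and 15.1-fold that of TertCi HFD. Among the 8 genes this was the widest gap between mCherry HFD and TertCi HFD.

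Shisa9, the AMPA receptor auxiliary subunit, was at 3.33 and 0 CPM in mCherry SD, 125 and 129.8 in mCherry HFD, 18.7 and 54.8 in Tert HFD, and 22.2 and 7.67 in TertCi HFD. Both mCherry HFD mice were above all others, while Tert HFD and TertCi HFD overlapped. The mCherry SD value was 1 UMI, so the ratio of pooled counts, 129.1-fold, had a counting interval of 23.2 to 5099. The mCherry HFD mean was 3.46-fold that of Tert HFD and 8.52-fold that of TertCi HFD.

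The receptor genes Oprm1 and Gabbr2 behaved differently from one another. Oprm1 was at 3.33 and 5.48 CPM in mCherry SD, 44.2 and 63.1 in mCherry HFD, 10.1 and 1.41 in Tert HFD, and 8.74 and 2.56 in TertCi HFD. Only the mCherry HFD mice were high, since Tert HFD and TertCi HFD overlapped mCherry SD (ratios of means 1.31 and 1.28). The mCherry HFD mean of Oprm1 was 12.2-fold that of mCherry SD, 9.31-fold that of Tert HFD and 9.50-fold that of TertCi HFD. Gabbr2 was at 13.3 and 8.22 CPM in mCherry SD, 34.7 and 20.7 in mCherry HFD, 28.2 and 35.1 in Tert HFD, and 27.3 and 57.1 in TertCi HFD. All 6 obese mice lay above both lean mice in Gabbr2, by 2.57-fold in mCherry HFD, 2.94-fold in Tert HFD and 3.92-fold in TertCi HFD, and the 3 obese groups overlapped.

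Fat3, the atypical cadherin, was at 13.3 and 13.7 CPM in mCherry SD, 1119 and 1018 in mCherry HFD, 148 and 308 in Tert HFD, and 185 and 176 in TertCi HFD. The mCherry HFD mean was 79.1-fold that of mCherry SD, 4.68-fold that of Tert HFD and 5.92-fold that of TertCi HFD. Fat3 in Tert HFD and TertCi HFD overlapped and lay 16.9-fold and 13.4-fold above mCherry SD. Fgf13, the sodium-channel partner, was at 9.99 and 8.22 CPM in mCherry SD, 973 and 821 in mCherry HFD, 168 and 449.7 in Tert HFD, and 185 and 264 in TertCi HFD. Its mCherry HFD mean was 98.5-fold that of mCherry SD, 2.91-fold that of Tert HFD and 4.00-fold that of TertCi HFD. Tert HFD mice rep134 and rep136 stood on both sides of TertCi HFD for Fgf13. With rep136 left out, the fitted log2 difference between Tert HFD and mCherry HFD was -2.38 for Fgf13, -2.82 for Fat3 and -2.73 for Shisa9; with rep134 left out it was -0.73, -1.53 and -0.95.

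Myh15, the myosin heavy chain, had 0 UMIs in both mCherry SD libraries and was at 129.4 and 119 CPM in mCherry HFD, 32.4 and 47.8 in Tert HFD, and 16.0 and 17.9 in TertCi HFD. The 4 groups did not overlap and had the same order as for St18. Myh15 was at least 42.7-fold, 13.8-fold and 5.82-fold higher in mCherry HFD, Tert HFD and TertCi HFD than the mCherry SD floor. Its mCherry HFD mean was 3.10-fold that of Tert HFD and 7.33-fold that of TertCi HFD. Across the 8 macrophage samples, log2 levels of Myh15 and St18 had a Pearson correlation of 0.986, Fat3 and Fgf13 one of 0.987, and Oprm1 and Gabbr2 one of -0.04; these samples share the 4 groups, and the values are a description.

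In the fit over all genes (edgeR quasi-likelihood test, Benjamini-Hochberg adjusted p under 0.05), 7 of the 8 members were past the threshold upward in mCherry HFD against mCherry SD, where 11.3% of 13535 genes were. The same 7, all but Gabbr2, were past it downward in Tert HFD against mCherry HFD (11.8% of genes) and in TertCi HFD against mCherry HFD (15.5% of genes). These contrasts chose the members, share the mCherry HFD mice, and nothing is read from the counts. Between Tert HFD and TertCi HFD, edgeR called 0 of 13535 genes, with 540 genes and 3 members at an unadjusted p under 0.05, and DESeq2 also called 0; without a filter on low counts edgeR called 37. With both mCherry HFD libraries left out, St18, Myh15, Fat3 and Fgf13 were past the threshold upward against mCherry SD in Tert HFD (1.06% of 9678 genes) and in TertCi HFD (0.630%). Their fitted log2 differences there were 2.36 and 1.86 for St18, 4.05 and 3.72 for Fat3, and 5.12 and 4.65 for Fgf13. The levels in these groups also chose the members, so these calls are a description and nothing is read from them.

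Within the macrophages the genes fell into different subclusters. Subcluster 0, with 1874 nuclei and Hmga2, Gpnmb, Dlgap2 and Fgf13 among its leading genes, was lipid-associated-like. It held 39.7% and 27.0% of the macrophages of the mCherry HFD mice, 2.69% in Tert HFD rep134, and 0% to 0.221% in the other 5 mice. Subcluster 2, with 1718 nuclei, was led by Oprm1 and Shisa9 and stayed unnamed; it held 29.4% and 42.9% in mCherry HFD, 3.02% in Tert HFD rep134 and 0% to 1.00% elsewhere. Subcluster 3, with 947 nuclei, was led by Tmem267 and Mageb18, with Gabbr2 and Ghr also among its leading genes, and stayed unnamed too. Mageb18 was also a leading gene of adipocyte-like clusters 4 and 12. Subcluster 3 held 17.2% and 49.2% in Tert HFD, 21.8% and 25.1% in TertCi HFD, 4.40% and 5.81% in mCherry SD, and 0.0270% and 0.651% in mCherry HFD. Tert HFD rep136, the library with the lowest median depth (1682 UMIs), gave 46.9% of its nuclei. Subcluster 1, led by F13a1 and perivascular-like, held 73.6% and 72.3% in mCherry SD, 29.1% to 56.8% in Tert HFD and TertCi HFD, and 0.216% and 0.362% in mCherry HFD. Subcluster 4, also perivascular-like, held 18.0% and 17.4% in mCherry HFD and 0.332% to 2.91% in the remaining mice. Members lead some of these subclusters, so the levels that follow are descriptions. When the nuclei were clustered again without the 8 genes, 96.6% of subcluster 0, 88.8% of subcluster 2 and 96.5% of subcluster 3 came back together, and all 3 were then lipid-associated-like by their markers.

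St18 was high in all of subclusters 0, 2 and 3, in whichever mice filled them. It was at 1592 and 1517 CPM in subcluster 0 of the mCherry HFD mice, 1499 and 1143 in their subcluster 2, and 1425, 983, 1252 and 1088 in subcluster 3 of the Tert HFD and TertCi HFD mice. The mean over subcluster 0 was only 1.31-fold that over subcluster 3, less than the differences between whole groups. In perivascular-like subcluster 1, St18 was at 44.8 and 35.1 CPM in mCherry SD, 207 and 114 in Tert HFD, and 103 and 74.9 in TertCi HFD. Free St18, in barcodes of 10 to 100 UMIs, was at 12.2 and 32.8 CPM, 157 and 223, and 70.2 and 99.1 in the same mice, and its part in these levels was not tested. Cycling nuclei of mCherry HFD (subcluster 6) had St18 at 1382 and 1366 CPM.

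Dlgap2 separated the subclusters more than St18 did. It was at 187 and 242 CPM in subcluster 0 and 73.3 and 72.5 CPM in subcluster 2 of the mCherry HFD mice, and 10.2 to 39.7 CPM in subcluster 3 of the Tert HFD and TertCi HFD mice. The mean of Dlgap2 in subcluster 0 was 2.94-fold that in subcluster 2 and 8.18-fold that in subcluster 3. Fat3 followed the same order, with 1756 and 2009 CPM in subcluster 0, 653 and 684 in subcluster 2, and 374 to 645 in subcluster 3. Fgf13 was at 1545 and 1429 CPM in subcluster 0, 502 and 699.7 in subcluster 2, and 399, 889.9, 636 and 939 in subcluster 3. Gpnmb, the lipid-associated marker, was 4.26-fold higher in subcluster 0 than in subcluster 2 and 2.49-fold higher than in subcluster 3.

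Shisa9 and Oprm1 had the opposite order between the subclusters of the obese control mice. Shisa9 was at 115 and 127 CPM in subcluster 0 and at 196 and 195 CPM in subcluster 2, a 1.62-fold difference of means. Oprm1 was at 33.0 and 52.2 CPM in subcluster 0 and at 79.2 and 105 CPM in subcluster 2, a 2.16-fold difference. In subcluster 3, Shisa9 ranged from 13.6 to 97.9 CPM and Oprm1 from 1.48 to 15.3 CPM. Oprm1 was also at 125 and 129.3 CPM in subcluster 5 of mCherry HFD, whose leading genes include Cd226. Gabbr2 was at 89.6, 68.2, 103 and 159 CPM in subcluster 3, against 45.1 and 22.6 CPM in subcluster 0 of mCherry HFD, a 3.10-fold difference of means. Myh15 was at 175 and 172 CPM in subcluster 0, 126 and 129.6 in subcluster 2 and 59.1 to 79.6 in subcluster 3. Only Tert HFD rep134 had 20 or more nuclei in all of subclusters 0 (25 nuclei), 2 and 3. In it, Gabbr2 was at 84.3, 74.5 and 89.6 CPM and Shisa9 at 84.3, 44.7 and 38.8 CPM in that order, so Gabbr2 differed less between subclusters 0 and 3 than across mice and Shisa9 was higher in subcluster 0 than in 2. Fat3 in it was at 861, 491 and 374 CPM and Dlgap2 at 54.2, 44.7 and 32.8 CPM, in the same order as across mice. Subclusters 0 and 2 of this mouse had only 25 and 28 nuclei, and whether these orders exceed counting error was not tested. Outside this mouse, subcluster 3 and the Tert HFD and TertCi HFD groups cannot be told apart.

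**Figure D2:**
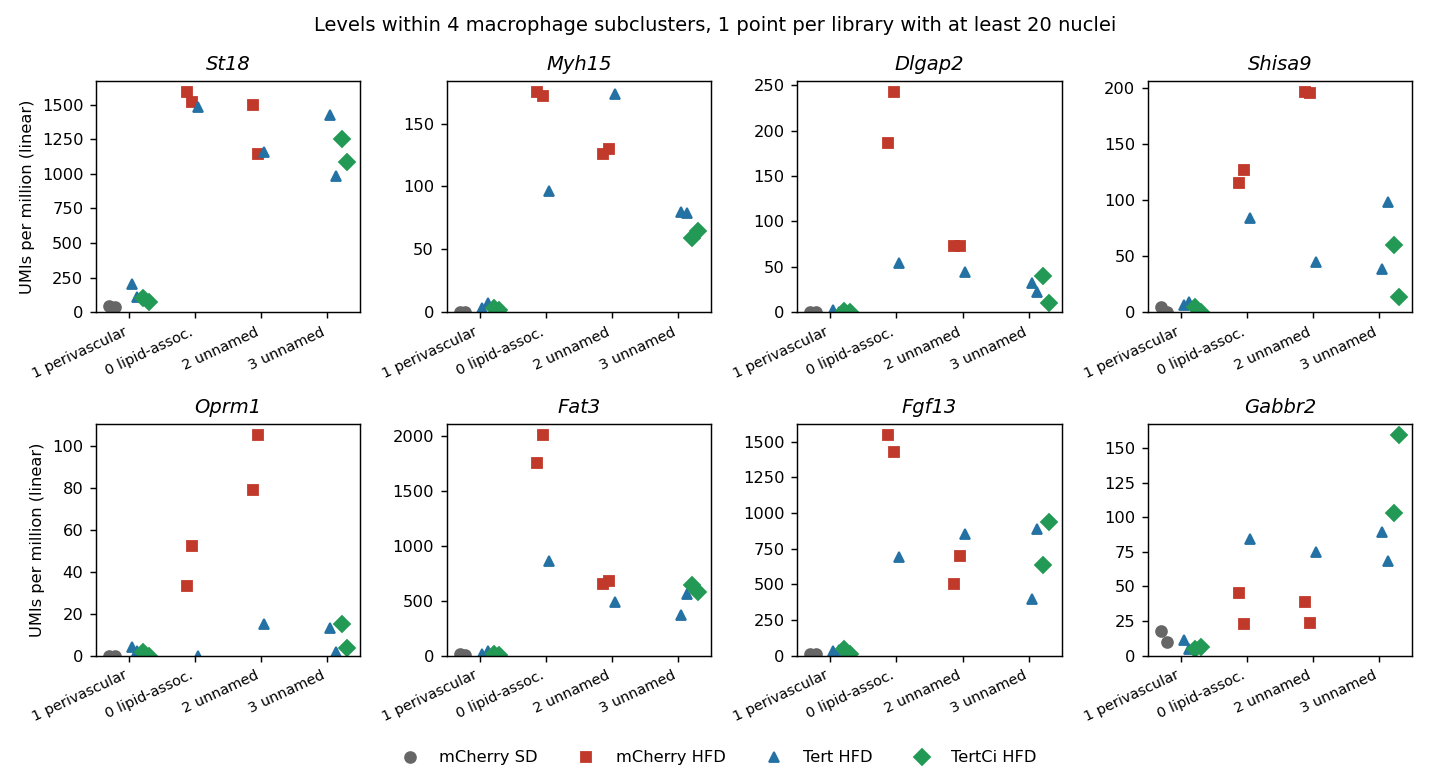
CPM of each of the 8 genes in macrophage subclusters 1, 0, 2 and 3, 1 panel per gene on its own linear axis. Points are mice with at least 20 nuclei in the subcluster, coloured by group. In the 2 mCherry HFD mice, Dlgap2 and Fat3 are higher in subcluster 0 than in subcluster 2 and Shisa9 and Oprm1 are lower, and in subcluster 3 Gabbr2 is at 68.2 to 159 CPM.

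St18, Fat3 and Fgf13 were also followed as shares of nuclei at equal depth. After each nucleus was thinned to 1000 UMIs, St18 was detected in 6.59% and 5.16% of macrophage-like nuclei in mCherry SD, 57.1% and 49.6% in mCherry HFD, 25.3% and 30.6% in Tert HFD, and 19.7% and 21.7% in TertCi HFD. Unthinned shares of St18 were 10.99% and 11.6%, 85.3% and 72.2%, 47.0% and 35.8%, and 32.9% and 37.1%. Thinning left out 27 macrophage-like nuclei of Tert HFD rep136 and none elsewhere. Fat3 was detected in 0% and 1.29% of thinned mCherry SD nuclei and in 44.2% and 41.8% of those of mCherry HFD, and Fgf13 in 0% and 0.645% against 28.3% and 26.6%. The unthinned shares were 1.10% and 3.87% against 71.2% and 59.8% for Fat3, and 3.30% and 3.87% against 53.4% and 44.2% for Fgf13. Nuclei of other classes also had St18 UMIs. Thinned endothelial-like nuclei of mCherry HFD had one in 46.0% and 23.8% (78.2% and 55.0% unthinned; median depths of 7842.5 and 2847 UMIs, against 6366 and 2616.5 in macrophages), and those of Tert HFD and TertCi HFD in 9.68% to 17.3%. Thinned adipocyte-like nuclei had an St18 UMI in 0% to 4.01% over the 8 mice (2.23% to 30.2% unthinned).

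Within a subcluster, nuclei with and without an St18 UMI were compared for the other genes. In subcluster 0 of mCherry HFD rep128, Fat3 was detected in 64.0% of 1028 nuclei with St18 and 66.2% of 444 without, Myh15 in 13.6% and 13.1%, Shisa9 in 10.99% and 6.08%, Fgf13 in 41.4% and 43.0%, and Dlgap2 in 10.02% and 10.8%. In rep129, Fat3 was in 66.9% of 245 nuclei with St18 and 65.6% of those without, Myh15 in 12.7% and 14.8%, Shisa9 in 10.6% and 10.2%, Fgf13 in 44.5% and 37.5%, and Dlgap2 in 11.02% and 7.81%. Myh15, Fat3, Fgf13 and Dlgap2 thus differed in opposite directions in the 2 mice in subcluster 0. In subcluster 2, Shisa9 was in 16.0% of nuclei with St18 and 10.6% of those without in rep128, and in 19.6% and 12.3% in rep129. Myh15, Dlgap2, Oprm1, Fat3 and Fgf13 were also more often detected beside St18 there in both mice. Fat3 was in 36.7% and 30.4% in rep128 and 42.4% and 36.8% in rep129, and Fgf13 in 20.4% and 18.4%, and 24.7% and 23.8%. Gabbr2 went in opposite directions there. In subcluster 6 of rep128, all 7 other genes were more often detected beside St18, among them Myh15 in 15.3% and 6.45% and Shisa9 in 14.4% and 4.84%. In subcluster 4, perivascular-like and led by Ednrb, Fat3 was in 25.9% of 166 nuclei with St18 and 11.3% of 503 without in rep128, and in 26.5% of 34 and 7.77% of 206 in rep129. All nuclei were thinned to 1000 UMIs here, and no test was made.

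Neuron markers were not higher where these genes were higher. Summed over 8 markers, of which 1 to 6 were detected per mouse, they were at 16.6 to 28.8 CPM in mCherry SD macrophages, 2.01 to 3.49 in mCherry HFD, 4.22 to 11.4 in Tert HFD and 3.41 to 7.25 in TertCi HFD. The lean sums rest on few UMIs: 5 of Elavl4 in rep144, and 13 of Rbfox3 and 8 of Elavl4 in rep146. Rbfox3 was also among the leading genes of cluster 29, found only in rep146, and the part of that cluster was not tested. The neuronal filament gene Nefl had 0 UMIs in every macrophage sample and Snap25 0 to 2. Elavl4 with 41 UMIs (1.504 CPM) and Rbfox3 with 27 (0.991 CPM) made up most of the sum in mCherry HFD rep128. The 7 Schwann cell markers were at 110 to 159 CPM in all 8 mice, mostly Mbp, with Sox10 at 0 to 1 UMI. The 9 lipid-associated markers summed to 439 to 555 CPM in the lean mice, 5543 to 6404 in mCherry HFD, 2327 to 2705 in Tert HFD and 1785 to 2012 in TertCi HFD, the same order of groups as St18 and Myh15. The 8 perivascular markers had 7002 to 7814, 1989 to 2089, 2689 to 6045 and 3989 to 6125 CPM, and all 10 macrophage markers were detected, at 2829 to 4409 CPM. Adipocyte markers were at 273 to 584 CPM in mCherry SD and 49.97 to 99.5 in mCherry HFD, T and NK markers at 13.7 to 26.6 and 215 to 246, B cell markers at 739 to 910 and 154 to 193, cycling markers at 9.99 to 21.9 and 91.7 to 111, and progenitor markers at 288 to 296 and 341 to 711; their part in the members' levels was not tested.

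Barcodes of 10 to 100 UMIs, too few for a nucleus, were taken as a measure of member RNA free in the suspension. Nuclei held 32.6% to 46.9% of the UMIs of a library, and barcodes of a size in between were not examined. The barcodes of 10 to 100 UMIs held 158691 of 139749876 UMIs in mCherry HFD rep128 and 108012 of 98229862 in Tert HFD rep134. The largest number was 3028609 of 23378488 in Tert HFD rep136. CPM in these low barcodes is a share of their RNA and not an amount. St18 in them was at 12.2 and 32.8 CPM in mCherry SD, 643 and 325 in mCherry HFD, 157 and 223 in Tert HFD, and 70.2 and 99.1 in TertCi HFD. Free St18 thus had the same group order as in macrophages, at a median of 30.1% of the macrophage level (17.6% to 49.3%, 6 obese mice). The medians were 36.1% for Myh15, 39.5% for Dlgap2, 37.4% for Fat3, 39.7% for Gabbr2, 56.5% for Shisa9, 60.0% for Fgf13 and 84.4% for Oprm1. All 8 medians were below the macrophage level, but not every mouse was. Free Oprm1 reached 274% and 188% of it in Tert HFD, on 3 and 8 free UMIs against 64 and 2 in macrophages. Free Shisa9 reached 185% in TertCi HFD rep140, on 4 free UMIs against 9. In the lean mice, free Fgf13 was at 405% and 549%, against 3 and 6 macrophage UMIs. Free Shisa9 was at 391.9% and free Oprm1 at 114% in rep144, each against 1 macrophage UMI. Free Fat3 was at 270% in rep146, on 9 free UMIs against 10. With barcodes of 10 to 50 UMIs, the median of Oprm1 was 173% and the other 7 were below the macrophage level. That Oprm1 median rests on 7 and 111 free UMIs in mCherry HFD, 3 and 2 in Tert HFD, and 1 and 0 in TertCi HFD.

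RNA from a single source keeps its genes in 1 ratio in every class, so member UMIs were set against those of macrophage reference genes (Adgre1, Csf1r, Mertk, Mrc1 and Dock2) and of lipid-associated reference genes (Gpnmb, Trem2, Atp6v0d2 and Mmp12). A value of 1 means the ratio seen in the macrophages of the same mouse. The macrophages themselves did not hold a single ratio. In mCherry HFD, Gpnmb was at 2773 to 2929 CPM in subcluster 0 and 633 to 706 in subcluster 2. St18 was at 1517 to 1592 and 1143 to 1499 CPM there. RNA drawn unevenly from the subclusters would shift the values below, so a value does not by itself tell the source. In endothelial-like nuclei, St18 was at 0.925 (0.786 to 1.11) times the macrophage ratio against the macrophage genes and 0.959 (0.880 to 0.985) against the lipid-associated genes, as median and range over the 6 obese mice. Fat3 there was at 1.05 and 1.01 times, and Myh15 at 1.17 and 1.09 times. The median of no gene exceeded 2 times the macrophage ratio in endothelial-like nuclei by either reference. In progenitor-like nuclei, St18 was at 0.9753 and 0.706 times and Fat3 at 0.728 and 0.596 times.

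Fgf13 in adipocyte-like nuclei and Shisa9 in progenitor-like nuclei did not keep those ratios. In adipocyte-like nuclei of the obese mice, Fgf13 was at 4.75 times the macrophage ratio against the macrophage genes (0.901 to 10.1, above 1 in 5 of 6) and 19.9 times against the lipid-associated genes (1.71 to 31.6, above 1 in 6 of 6). In lean adipocyte-like nuclei, 234 UMIs of Fgf13 were counted where the macrophage ratio gave 9.76, and St18 had 75 where it gave 117. The lean macrophage ratio of Fgf13 rests on 9 UMIs and that of Shisa9 on 1 UMI, so the lean expectations for these genes are uncertain. Shisa9 in progenitor-like nuclei was at 9.97 times (2.26 to 32.0) and 6.88 times (1.86 to 16.6) in the obese mice, above 1 in all 6, and had 97 UMIs in the lean mice against 0.0856 and 1.32 by the 2 references. Dlgap2 in adipocyte-like nuclei was at 2.00 and 6.06 times, above 1 in 5 of 6, on 115 UMIs. Oprm1 in dendritic-like nuclei, one of the wider classes described further on, was at 7.004 and 14.4 times, above 1 in 5 of 6, with 127 and 240.5 CPM in mCherry HFD.

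**Figure D3:**
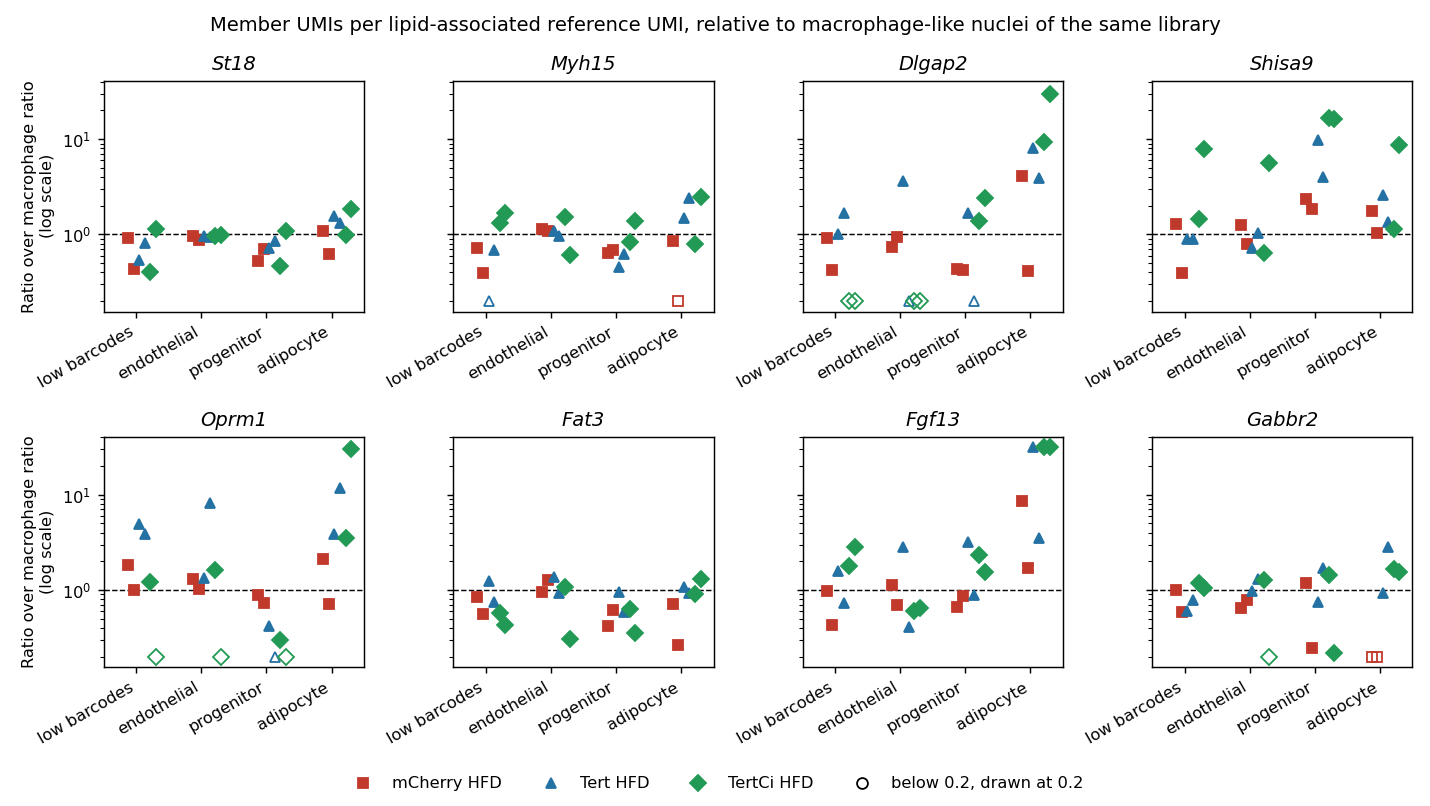
Ratio of each gene to the lipid-associated reference genes, relative to the same ratio in macrophage-like nuclei, on a log axis. There is 1 panel per gene, with barcodes of 10 to 100 UMIs and endothelial-like, progenitor-like and adipocyte-like nuclei along the horizontal axis. Each point is 1 obese mouse, open symbols at 0.2 stand for lower values, and the dashed line is at 1. St18 lies between 0.880 and 0.985 in endothelial-like nuclei, while Fgf13 in adipocyte-like nuclei and Shisa9 in progenitor-like nuclei lie above 1 in all 6 mice.

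In adipocyte-like nuclei, Fgf13 was at 16.7 and 33.6 CPM in mCherry SD, 306 and 135 in mCherry HFD, 225 and 85.4 in Tert HFD, and 182 and 204 in TertCi HFD. All 6 obese mice were above the lean mice, and the obese groups overlapped. Free Fgf13, in barcodes of 10 to 100 UMIs, was at 40.4 and 45.1 CPM in mCherry SD and 517 and 246 in mCherry HFD. It was at 148 and 162 CPM in Tert HFD and 145 and 177 in TertCi HFD. Adipocyte-like Fgf13 lay below it in all mice of the diet comparison. The clusters that make up this class also shifted with diet. Cluster 4 gave 97 and 18 nuclei in mCherry HFD and 9 and 18 in mCherry SD. Cluster 6 gave 3 and 5 nuclei in mCherry HFD and 389 and 614 in mCherry SD. The parts of free RNA and of this shift in the differences that follow were not tested. Fgf13 rose with diet by 2.94 ± 0.46 on the log2 scale (SE, edgeR quasi-likelihood test, Benjamini-Hochberg adjusted p = 0.00533; 0.156 without mCherry HFD rep128). Against mCherry HFD, its difference in adipocyte-like nuclei was -0.40 ± 0.42 in Tert HFD (edgeR adjusted p = 0.628) and 0.10 ± 0.42 in TertCi HFD (edgeR adjusted p = 0.923). Without Tert HFD rep134 the difference in Tert HFD was -1.02, and without mCherry HFD rep128 it was 0.54; in macrophages it was -1.37, and -0.73 without Tert HFD rep134. The difference between the 2 classes was not tested. Thinned to 1000 UMIs, adipocyte-like nuclei had a Fgf13 UMI in 1.37% and 2.72% in mCherry SD and in 6.37% to 26.7% in the obese mice (6.69% and 11.9%, and 15.1% to 70.7%, unthinned).

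Of the 7 members fitted in adipocyte-like nuclei, 5 were past the threshold upward with diet, where 9.67% of genes were: Fgf13, St18, Dlgap2, Oprm1 and Fat3. Fat3 was at 0.274 and 0.926 times the macrophage ratio by the 2 references in the obese mice, so its call, like that of St18, is not shown to be independent of the macrophage levels that chose the genes. Oprm1 had only 5, 1, 29 and 3 UMIs in clusters 4, 6, 12 and 22, which make up this class, so its call rests on few molecules. The calls of Oprm1 and Dlgap2 are not shown to be independent of the macrophage levels either, and nothing is read from the count. St18 in adipocyte-like nuclei was at 5.82 and 10.6 CPM in mCherry SD, 52.8 and 65.3 in mCherry HFD, 34.8 and 40.7 in Tert HFD, and 12.4 and 16.7 in TertCi HFD. In the obese mice this was 0.381 times the macrophage ratio (0.298 to 0.4996, above 1 in 0 of 6) against the macrophage genes and 1.21 times (0.630 to 1.83, above 1 in 4 of 6) against the lipid-associated genes. The St18 levels were below those of free St18 in the obese mice and are given as a description, with fitted log2 differences of 2.48 ± 0.37 with diet and -1.58 ± 0.35 in TertCi HFD. Of the 7, 0 passed in Tert HFD against mCherry HFD by edgeR or DESeq2 (1 at an unadjusted p under 0.05 by edgeR, 0.684% of genes called), and 1, St18, was past the threshold downward in TertCi HFD (4.59% of genes). The count for diet was 0 without mCherry HFD rep128, whose 116 adipocyte-like nuclei outnumbered the 34 of rep129, and the St18 call in TertCi HFD was also lost without either mCherry HFD or either TertCi HFD library.

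In progenitor-like nuclei, Shisa9 was at 43.9 and 60.9 CPM in mCherry SD, 22.2 and 28.5 in mCherry HFD, 16.6 and 18.6 in Tert HFD, and 28.6 and 5.74 in TertCi HFD. The lean mice were the highest, whereas in macrophages they were the lowest. The difference with diet, -1.31 ± 0.46 on the log2 scale, did not pass (edgeR adjusted p = 0.0838). Differences of Shisa9 against mCherry HFD were -0.37 ± 0.46 in Tert HFD (edgeR adjusted p = 0.664) and -0.16 ± 0.44 in TertCi HFD (edgeR adjusted p = 0.844). The other 4 members in the fit of this class were past the threshold upward with diet (7.52% of genes), and these values are given as a description. Fitted log2 differences were 2.18 ± 0.41 for St18, 2.41 ± 0.46 for Fgf13 and 3.54 ± 0.64 for Fat3. Myh15 had 0 UMIs in lean mice, so it entered the fit only through the obese mice. St18, Myh15 and Fat3 here had medians under the macrophage ratio by both references, so their tests are not shown to be independent of the macrophage levels either. Nor is that of Fgf13, with medians of 24.5, 38.9, 33.7 and 31.4 CPM in clusters 0, 7, 10 and 21 of this class. Free Fgf13 was at 145 to 517 CPM in the obese mice. Fat3 was past the threshold downward in Tert HFD, at -1.80 ± 0.43 (edgeR adjusted p = 0.0194), the only 1 of 5 (7.74% of genes). St18, Myh15, Fat3 and Fgf13 were past it downward in TertCi HFD (12.8% of genes), at -1.89 ± 0.33, -2.56 ± 0.63, -2.73 ± 0.45 and -1.02 ± 0.33. Nothing is read from these counts. Without mCherry SD rep144 only 1 of the 5 passed for diet, without mCherry HFD rep129 the Fat3 call in Tert HFD was lost (adjusted p = 0.169), and DESeq2 called 2 in TertCi HFD.

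Endothelial-like nuclei, where St18 kept the macrophage ratio, had the same order of the obese groups. St18 there was at 0 CPM in mCherry SD rep146, 908 and 675 in mCherry HFD, 249 and 228 in Tert HFD, and 139 and 143 in TertCi HFD; mCherry SD rep144, with 10 nuclei and 408 CPM, was left out of the fit. Free St18 had the same order, at 643 and 325 CPM in mCherry HFD, 157 and 223 in Tert HFD, and 70.2 and 99.1 in TertCi HFD. The endothelial-like levels lay above free St18 in each obese mouse, though only just in Tert HFD rep136. The source of this excess was not tested. The endothelial-like levels are thus not shown to be independent of the macrophage levels that chose the genes, and they are given as a description. Against mCherry HFD, the fitted log2 difference of St18 was -1.72 ± 0.21 in Tert HFD and -2.43 ± 0.23 in TertCi HFD. Fat3 was at 756 and 923 CPM in mCherry HFD, 98.8 and 121 in Tert HFD, and 72.4 and 21.1 in TertCi HFD, with a fitted difference of -2.97 ± 0.29 in Tert HFD. Of 7 members in the fit, 6 were past the threshold downward in Tert HFD (6.46% of genes) and 7 in TertCi HFD (10.0%), and nothing is read from these counts. For diet, 4 were past the threshold upward (1.96% of genes), with a lean arm of 1 mouse of 23 nuclei that is assumed to vary like the other groups, and with St18 in the lean mouse left out above all 4 Tert HFD and TertCi HFD mice. DESeq2 called 2 in Tert HFD.

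Between Tert HFD and TertCi HFD, 0 members passed in adipocyte-like, progenitor-like or endothelial-like nuclei by edgeR, with 2, 1 and 4 at an unadjusted p under 0.05; DESeq2 called 0 in each (in edgeR, 0%, 0% and 0.0131% of all genes were called). In wider classes made after seeing the data, which also take in clusters with markers of a second lineage, more members passed. Adipocyte-like nuclei then had 8 of 8 past the threshold with diet (21.9% of genes), 4 in Tert HFD (1.34%) and 6 in TertCi HFD (17.3%), and progenitor-like nuclei 6 of 8 in Tert HFD (16.1%). The wider progenitor-like class took in cluster 9, whose second lineage was macrophage; it gave 747 of the 1980 nuclei of mCherry HFD rep128, with St18 at 601 CPM, and 5 and 3 nuclei in the lean mice. Mesothelial-like nuclei had 6 of 8 past the threshold with diet (13.7% of genes), mural-like 3 of 4 (6.81%) and T and NK-like 4 of 5 (3.60%). In mural-like and in T and NK-like nuclei the lean arm was 1 mouse, of 22 and 27 nuclei, assumed to vary like the other groups. Against the 2 references, St18 in the obese mice had medians of 0.843 and 0.842 times the macrophage ratio in mesothelial-like, 0.638 and 1.08 in mural-like, and 0.699 and 0.686 in T and NK-like nuclei. The counts in the wider classes are therefore not shown to be independent of the macrophage levels, and nothing is read from them.

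Genes related to the members by family or function were tested in macrophages. Of 100 relatives in 9 lists, 35 passed the filter on low counts, as did 13535 of all 56749 features, and of these 35 3 rose and 6 fell with diet, 7 rose and 3 fell in Tert HFD against mCherry HFD, and 8 rose and 5 fell in TertCi HFD against mCherry HFD (edgeR, Benjamini-Hochberg adjusted p under 0.05 over all 13535 genes; 20.5%, 19.3% and 26.0% of genes called). Their median log2 difference was -0.50 with diet, against 0.12 for all genes, and 0.36 and 0.21 in Tert HFD and TertCi HFD, against -0.05 and -0.08. Without mCherry SD rep146, 2 relatives were called for diet. None of the 2 MYT zinc fingers or 7 opioid receptors and ligands passed the filter, while 2 of 16 AMPA receptor genes, 2 of 16 FGF homologous factors and sodium channels, 5 of 15 GABA genes and 12 of 15 postsynaptic scaffolds did. Outside the scaffolds, log2 differences against mCherry HFD were called for Myh10 (1.17 ± 0.27, TertCi HFD) and Gria4 (1.62 ± 0.53, Tert HFD). They were also called for Dchs2 (2.40 ± 0.63 and 2.02 ± 0.66) and Dchs1 (-1.86 ± 0.58 and -1.91 ± 0.61) in Tert HFD and TertCi HFD. Kctd12 (0.53 ± 0.18) was called in TertCi HFD, and Gabbr1 and Kctd16 are described below. Of 9 genes of the REST repressor complex, which silences neuronal genes in other cells, 8 passed the filter. Rest itself differed by -0.07 ± 0.29 on the log2 scale with diet, 0.39 ± 0.22 in Tert HFD and 0.46 ± 0.22 in TertCi HFD and did not pass (edgeR adjusted p = 0.913, 0.237 and 0.146).

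Gabbr1, the obligate partner of Gabbr2, was lowest in mCherry HFD, where Gabbr2 lay above its lean level. It was at 29.96 and 24.7 CPM in mCherry SD, 4.92 and 6.47 in mCherry HFD, 21.5 and 14.8 in Tert HFD, and 24.3 and 20.5 in TertCi HFD. Both mCherry HFD mice were below all others. Gabbr1 fell with diet by 2.41 ± 0.38 on the log2 scale (edgeR adjusted p = 0.00101) and rose by 1.89 ± 0.30 in Tert HFD (edgeR adjusted p = 0.00148) and 2.19 ± 0.30 in TertCi HFD (edgeR adjusted p = 0.000414). Kctd16, an auxiliary subunit of the same receptor, was at 133 and 148 CPM in mCherry SD, 21.1 and 12.7 in mCherry HFD, 85.0 and 71.0 in Tert HFD, and 129.4 and 103 in TertCi HFD. It fell with diet by 3.14 ± 0.25 (edgeR adjusted p = 6.33e-06). Kctd16 is among the leading genes of perivascular-like subcluster 1, which held 73.6% and 72.3% of the macrophages of mCherry SD and 0.216% and 0.362% of those of mCherry HFD. It is not among the leading genes of perivascular-like subcluster 4, which held 18.0% and 17.4% of the macrophages of mCherry HFD.

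Among the scaffolds, Dlgap1, a paralogue of Dlgap2, was highest in mCherry HFD. It was at 0 and 10.96 CPM in mCherry SD, 50.6 and 43.5 in mCherry HFD, 13.1 and 4.22 in Tert HFD, and 8.53 and 3.41 in TertCi HFD. Only the mCherry HFD mice were high. Dlgap1 rose by 2.52 ± 0.63 with diet (edgeR adjusted p = 0.0146) and fell by 2.12 ± 0.42 in Tert HFD (edgeR adjusted p = 0.00456) and by 2.62 ± 0.45 in TertCi HFD (edgeR adjusted p = 0.00156). Dlgap5, placed on the same list by family and with 0 and 1 UMI in mCherry SD, rose with diet by 4.04 ± 1.03 (edgeR adjusted p = 0.0160). A synaptic role of Dlgap5 is not shown by these data. Cycling markers in the same sums were at 9.99 to 21.9 CPM in mCherry SD and 91.7 to 111 in mCherry HFD. The part of cycling nuclei in the Dlgap5 difference was not tested. Dlg3 rose by 2.82 ± 0.60 (edgeR adjusted p = 0.00631), and Homer2 fell by 3.67 ± 0.72 (edgeR adjusted p = 0.00379). Dlg2, another postsynaptic scaffold, was at 6.66 CPM (2 UMIs) and 32.9 CPM in mCherry SD and at 4.55 and 9.37 in mCherry HFD, so these groups overlapped, while the fit gave -2.01 with diet (edgeR adjusted p = 0.0235). Without mCherry HFD rep128, 3 relatives were called in each of Tert HFD and TertCi HFD.

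Over the 8 macrophage samples, the genes whose log2 levels were most like St18 were Dhrs9, Zranb3, Cadm1, Gm44664 and Stap1, with Pearson correlations of 0.99 or more. Those most like the mean of the 8 members were Airn, Gpnmb, Gm32515, Stab2 and Nceh1. Over 69 sums of a class in a mouse, the genes most like St18 were Lgals3 (0.933), Atp6v0d2 (0.924), Apobec1 (0.921), Cd84 (0.905) and Arhgap25 (0.903). The samples share groups and, in the last case, libraries, so these values are a description.

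All 8 genes are long. By GENCODE M21 their spans were 142 kb for Myh15, 279.7 for Oprm1, 287 for Shisa9, 329.6 for Gabbr2, 374 for St18, 506 for Fgf13, 591 for Fat3 and 752 for Dlgap2, at percentiles 91.0 to 99.5 of the 13328 tested genes with a span. The longest quartile of genes, 59.1 kb and over, went the other way from the members other than Gabbr2: 9.78% were called up and 22.4% down with diet, 19.0% up and 6.75% down in Tert HFD, and 25.9% up and 8.07% down in TertCi HFD. The shortest quartile had 14.9% up and 2.55% down with diet. The median log2 difference with diet was -0.30 in the longest and 0.72 in the shortest quartile. Oprm1 overlaps Ipcef1 on the opposite strand, which had 3233 UMIs in macrophages against 1603 of Oprm1, and reads of the pair could be shared if counting ignored strand. Ipcef1 differed by -0.06, 0.30 and 0.69 on the log2 scale in the 3 comparisons and was not called. Gm48726, which overlaps Fat3 on the same strand, had far fewer UMIs than Fat3, and the other overlapping genes had 0 to 2.

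**Figure D4:**
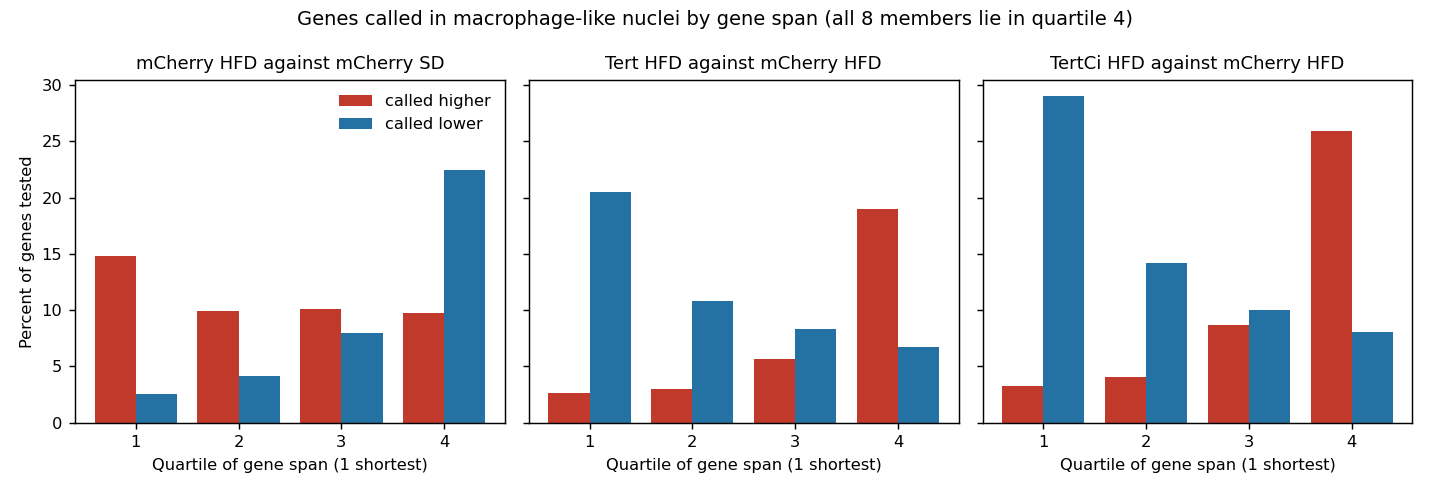
Percent of tested genes called higher or lower in macrophage-like nuclei, by quartile of gene span (1 is the shortest), for mCherry HFD against mCherry SD and for Tert HFD and TertCi HFD against mCherry HFD. In quartile 4, which holds all 8 members, 22.4% of genes are called lower and 9.78% higher with diet, and 19.0% and 25.9% are called higher in Tert HFD and TertCi HFD.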

How the data were processed

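Raw UMI counts per gene and barcode were deposited by the authors as unfiltered matrices of 8 mice, made with Cell Ranger, per the file headers version 7.1.0 and per the submitters' processing notes version 5.0.1 with mm39 and bcl2fastq 2.20.0. The design text names stromal vascular cells and p21+/- controls, and the sample labels were followed instead. The 8 genes and all lists were chosen with earlier results of these data known. All 8 genes were named, with relatives from 9 lists, the 5 most changed of those called per list, and the 5 genes most like St18.

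Barcodes with at least 0.1 of the 99th percentile of the largest 5000 and at least 500 UMIs, 300 genes and at most 5% mitochondrial UMIs were kept (thresholds of 987 to 4705 UMIs). Scrublet's own threshold marked 0% to 0.154% of nuclei and had not worked, so the highest 0.8% per 1000 nuclei were removed instead (1.59% to 6.35%). Nuclei were clustered (scanpy 1.11.5, leidenalg 0.10.2; 2000 variable genes, 30 components, resolution 1.0, macrophages again at 0.5) and named from 3 or more raised markers. UMIs were summed per mouse and class with at least 20 nuclei, and tested with edgeR 4.0.16 (R 4.3.3; TMM, filterByExpr, quasi-likelihood test over all groups, Benjamini-Hochberg adjusted p under 0.05). Levels are CPM of the summed counts, folds are ratios of group means, and the floor of an undetected gene is 3 counts over the group. Correlations used log2 of CPM plus 1. Alternatives were DESeq2 1.42.0, its size factors, no filter, at least 1000 UMIs per nucleus, each mouse left out and, chosen after seeing the data, wider classes and leaving out both mCherry HFD mice. On simulated counts for the diet comparison in macrophages (13535 genes), 2 of 100 genes changed 2-fold and 62 of 100 changed 4-fold were called, with 3 false calls. Intervals are exact at 95% and cover counting error only.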

Additional observations from a re-analysis of the deposited data

Results flagged for a closer look

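Outside the classes compared, 4 of the genes were high in clusters that came almost entirely from 1 library, above the level in barcodes of 10 to 100 UMIs of the same library. Fat3 was at 185 CPM (exact Poisson interval 169 to 201, 521 UMIs) in 286 nuclei of mCherry SD rep146, against 36.9 CPM in its low barcodes; this cluster, number 29, was led by Lsamp, Rbfox3 and Myh11, genes of neurons and smooth muscle. Oprm1 was at 228 CPM (248 UMIs, 121 nuclei) in cluster 34 and 152 CPM (155 UMIs, 108 nuclei) in cluster 35 of mCherry HFD rep128, against 44.1 CPM; both had Adam7, a gene of the epididymis, among their leading genes. Fgf13 was at 1442 CPM (1337 to 1553, 695 UMIs) in 69 nuclei of the same mouse, cluster 37, with Dcdc2a, Pkhd1 and Lrp2 among its leading genes, against 517 CPM. Shisa9 was at 75.8 CPM (52.5 to 106, 34 UMIs) in 62 nuclei of mCherry SD rep146, cluster 38, led by Grip1 and Trp63, against 16.4 CPM. With 1 library each, these values have no replicate, and cluster and library cannot be told apart.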

How the results depend on the processing

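No paired analysis was possible because the replicate numbers differ between the groups. Depth limits the lean arms, with 91 and 155 macrophage-like and 10 and 23 endothelial-like nuclei. Of 263 recomputed counts, 212 stayed within 1.5 times their reported value. With DESeq2, 1686 genes were called in macrophages for Tert HFD and 2312 for TertCi HFD; members called were 2 for TertCi HFD in progenitor-like and 2 for Tert HFD in endothelial-like nuclei. Without a filter, Tert HFD against TertCi HFD gave 37 genes in macrophages and 1 member in progenitor-like and 2 in endothelial-like nuclei; 3 members were called in adipocyte-like nuclei for TertCi HFD and 3 in progenitor-like nuclei for Tert HFD. In the wider classes, adipocyte-like nuclei had 8 members called for diet, 4 for Tert HFD and 6 for TertCi HFD, and progenitor-like nuclei had 6 for Tert HFD. Against the lipid-associated genes, 0 members exceeded 2 times the macrophage ratio in low barcodes, against 1 by the macrophage genes.

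With 1 mouse left out at a time, genes called in macrophages ranged from 937 (without mCherry SD rep146) to 3506 for diet, 814 (without mCherry HFD rep128) to 2751 for Tert HFD, 1002 (without TertCi HFD rep138) to 4706 for TertCi HFD, and 0 to 27 (without Tert HFD rep136) between the last 2. Relatives called ranged from 2 to 11, 3 to 10 and 3 to 14. Members called ranged from 0 to 5 for diet and 0 to 3 for TertCi HFD in adipocyte-like nuclei, 1 to 5, 0 to 1 and 2 to 4 in progenitor-like nuclei, and 3 to 4, 2 to 7, 5 to 7 and, between Tert HFD and TertCi HFD, 0 to 1 in endothelial-like nuclei. Of 312 recomputed member folds in macrophages, 287 moved by less than the spread between mice and 25 moved further. Among these 312, 1 changed sign, Gabbr2 for Tert HFD, from 0.27 to -0.0076 without mCherry HFD rep129. Of 421 in other classes, 357 kept direction and side of the threshold, 55 fell below it, 5 passed it and 4 changed sign. These were Fgf13 in adipocyte-like nuclei for Tert HFD, which ranged from -1.02 (without Tert HFD rep134) to 0.54 (without mCherry HFD rep128; 0.07 without Tert HFD rep136), Fgf13 there for TertCi HFD, from -0.26 (without mCherry HFD rep129) to 1.05 (without mCherry HFD rep128), and Shisa9 in progenitor-like nuclei for TertCi HFD, from -1.84 (without TertCi HFD rep138) to 0.41 (without TertCi HFD rep140), on the log2 scale. The cause was not tested.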
